A study of Mus musculus with 45 samples.

Results

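Mouse hearts of 2 kinds that had not been banded were compared, the heart labelled sham, with 1 poly(A) RNA-seq library, and the heart labelled adult, with 2. A sham operation opens the animal as a banding operation does, without narrowing the vessel. These 3 libraries were taken by their labels from 45 samples, of which 6 are RNA-seq libraries, and the other 39 were not analysed here. The adult samples carry the age label Adult and no operation, and the sham sample carries the stress label Sham and no age. The protocol names the alleles Gata4fbio, Rosa26BirA, cTNTcre and Gata4flox for the series as a whole and does not say which animals behind these libraries carry which. It names pooled RNA, so each library may hold several hearts, and nothing in the labels ties the 2 adult libraries to separate animals. The p-values below therefore rest on how far 1 adult library lay from the other, which may be technical, and the lone sham library was assumed to vary like them. The comparison asks which functional groups of genes separate 2 hearts that both served as hearts without pressure load.

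The adult heart runs mainly on fatty acids, which are broken down in the mitochondria and fed into the citric acid cycle, and most of its mitochondrial enzymes are encoded in the nucleus. Atria and ventricles use different myosin light chains and channels, so these transcripts tell the chambers apart. Immediate early genes are switched on within minutes of a stimulus such as a growth factor or stretch, and their transcripts decay fast. Small nucleolar RNAs and microRNAs are cut from longer transcripts and carry no poly(A) tail of their own once they are mature.

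All levels below are log2(FPKM + 1), where FPKM is the read count divided by transcript length and by the mapped reads of the library, after 1 scaling factor per library. Each library was scaled to the median ratio over 9449 genes above 1 FPKM in all 3. A gene was tested when it reached 5 FPKM in sham or in the adult mean, which left 6775 of 23284 listed genes. It was called higher or lower in sham when it differed by at least 2-fold, the same way, from each adult library. By this rule 897 genes (13.2%) were higher and 1119 (16.5%) lower in sham, which is 29.8% in all, against 26 of 5955 genes (0.437%) that differed 2-fold between the 2 adult libraries, with 0.218% in each direction. By limma with Benjamini-Hochberg adjustment at 0.05, 2183 genes (32.2%) were higher and 2601 (38.4%) lower, which is 70.6% in all, and 2015 of the 2016 genes called by the 2-fold rule were among them. Of the 897 higher genes 527 reached 5 FPKM in sham alone, and of the 1119 lower genes 421 did in adult alone, so these had to stand on that side. The median difference over all genes tested was -0.098. It was -0.74 on the scale as deposited, where 267 genes were higher and 2406 lower, and 0.13 with upper-quartile scaling, where 1228 were higher and 835 lower. The scaling itself moved sham against adult by 0.62 for abundant genes, and by less for low genes because of the pseudocount, so abundant genes that stood above adult by less than that, Tnni3 among them, lay below it on the deposited scale. Group counts by the 2-fold rule are to be read against the 13.2% higher and 16.5% lower of all genes. Group counts by limma are to be read against its own shares of all genes, 32.2% higher and 38.4% lower. Group medians are to be read against the median of all genes under the same scaling.

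The sham library differed from the adult pair as a library. Its mapped reads numbered 12086929, against 12619710 and 12357585 in adult, and 55.6% of them lay on listed genes, against 83.6% and 83.9%. The ribosomal RNA precursor Rn45s took 4.57% of mapped reads in sham and 0.234% and 0.286% in adult. The banding library, the other operated heart, had 58.0% on listed genes and 4.66% on Rn45s. The part of this difference in the gene results was not tested. Heart muscle markers were high in all 3 libraries, with Myh6, the adult myosin heavy chain, at 13.08 and 12.97 in adult and 13.19 in sham, and Tnnt2, cardiac troponin T, at 13.42, 13.45 and 13.71. They did not share a direction. Tnni3 differed by 0.57, and Actc1, Myl2 and Myl3 lay lower in sham, by -1.93, -0.87 and -0.515. Sftpc and Scgb1a1, which define lung epithelium, were listed at 0 in all 3, and Alb, the liver's albumin, held at most 1 read.

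**Figure D1:**
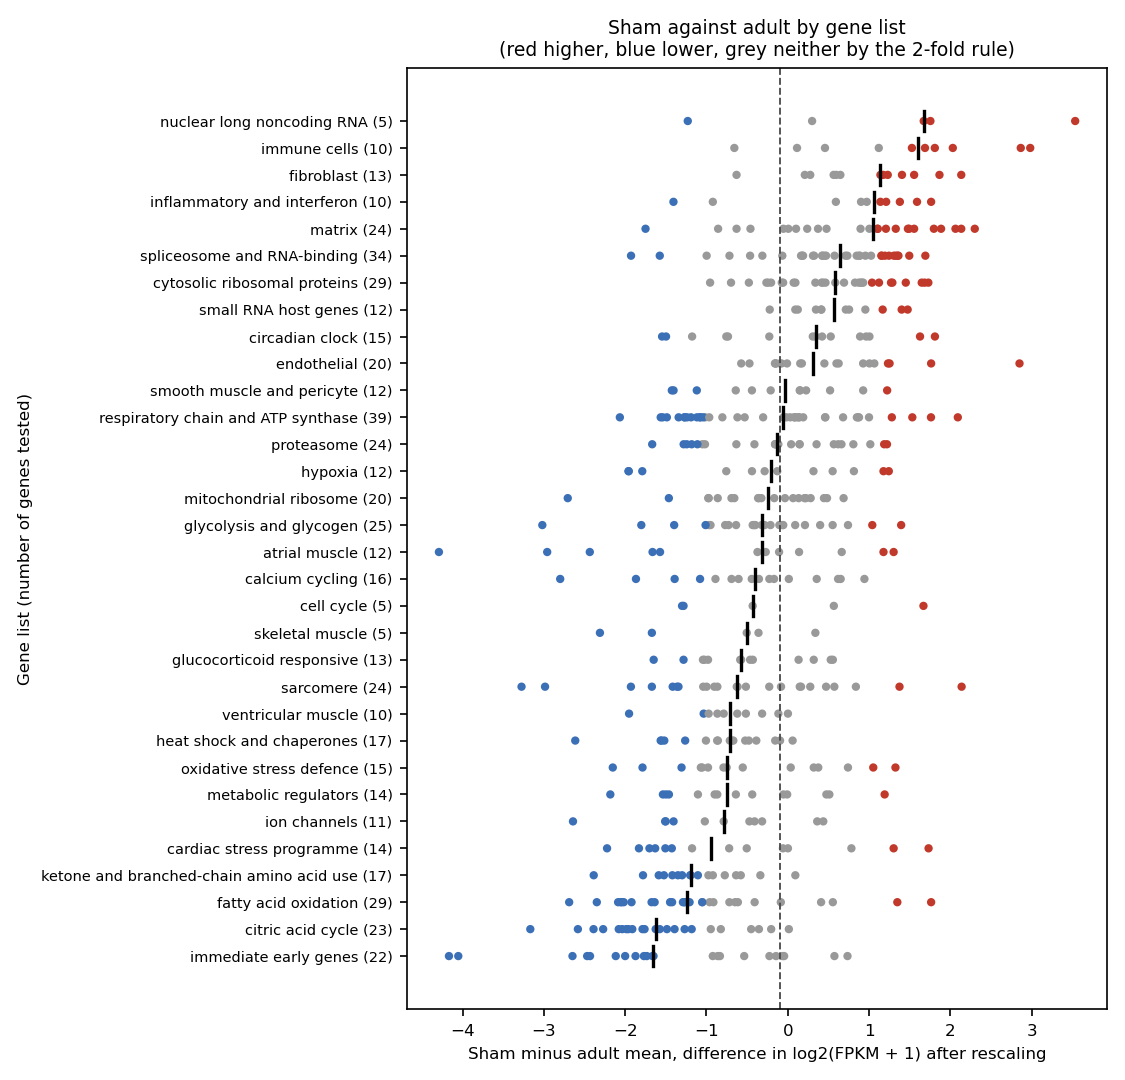
Each point is a tested gene, placed by its difference between sham and the adult mean in log2(FPKM + 1), and each row is a gene list with the number of its genes tested. Black bars are list medians and the dashed line is the median of all genes tested (-0.098). Immediate early genes, with a median of -1.66, and the citric acid cycle, with -1.63, stand lowest, and nuclear long noncoding RNA, with 1.67, stands highest. Lists with at least 5 tested genes are drawn.

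The sentinel genes of the cardiac stress response did not move together. Gata4, the transcription factor the study is about, stood at 3.61 and 3.07 in adult and 2.62 in sham, below both adult libraries (difference -0.72, SE 0.24, limma adjusted p = 0.0452), and did not reach the 2-fold rule. Nppa, the atrial natriuretic peptide, stood at 7.51 and 7.25 in adult and 8.69 in sham, above both. Nppb, the brain natriuretic peptide, stood at 7.04 and 5.77 in adult and 4.70 in sham, below both. The natriuretic peptides thus lay on opposite sides of adult, with differences of 1.30 (SE 0.14, limma adjusted p = 0.0011) and -1.70 (SE 0.50, adjusted p = 0.0283). Ankrd1, a stretch-responsive protein of the titin complex, stood at 9.89 and 9.21 in adult and 11.29 in sham, and its FPKM was 3.24 times that of adult, with a 95% counting interval of 3.20 to 3.29. Acta1, the skeletal actin of the stressed heart, stood at 7.997 and 6.78 in adult and 6.88 in sham, between the adult libraries (limma adjusted p = 0.378), and its difference was 0.10 without adult replicate 1 and -1.11, a 2-fold call, without replicate 2. Myh7, the fetal myosin heavy chain, stood at 8.27, 8.17 and 8.22, and its sham-to-adult ratio was 1.00 with an interval of 0.984 to 1.02.

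Of the 14 tested genes of the cardiac stress programme, 2 were higher and 6 lower in sham, with a median of -0.95. That median was -0.28 over the 18 genes past 1 FPKM, -0.69 without adult replicate 1 and -1.27 without replicate 2. Rcan1, an inhibitor of calcineurin that calcineurin itself induces, stood at 5.52 and 4.90 in adult and 2.99 in sham, and Ctgf, a matricellular growth factor, at 5.31, 4.96 and 3.30. Xirp1, a protein of the intercalated disc, and Fhl1, a sarcomeric stress sensor, were lower by the same rule, with differences of -1.63 (SE 0.18) and -1.51 (SE 0.19). In the banding library Rcan1 stood at 5.06, Ctgf at 5.51 and Fhl1 at 5.01, all 3 above sham. Values of the banding library are given beside those of sham without a test, since both are set against the same adult pair. Intervals on ratios are exact, from whole reads recovered from the FPKM values, and cover counting error only.

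The immediate early genes stood largely below adult. Of 44 listed, 22 were tested, and 12 of these were lower and none higher in sham by the 2-fold rule, beside 16.5% and 13.2% of all genes tested. Of the 12, 7 reached 5 FPKM in adult alone. By limma 16 were lower and 1 was higher. Their median was -1.66, and it was -2.15 as deposited and -1.49 with upper-quartile scaling, below the median of all genes each time. With the threshold at 1 FPKM, 35 were tested, of which 14 were lower and none higher, with a median of -0.83.

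Many of these genes are known to answer to factors that bind the cAMP response element. As an illustration, promoters are shown of 3 members that were lower in sham and that hold letters of this element. Its part in the lower levels was not tested. The window runs from 250 bases before to 50 after the annotated start, from RefSeq on GRCm38.p6, 5′ to 3′ on the gene's strand. Capitals mark TGACGT, or TGACGTCA where the full palindrome stands, and ACGTCA where the match lies on the other strand. The Fos promoter spans chr12:85473640-85473939 (plus strand), that of Atf3 chr1:191183284-191183583 (minus strand) and that of Btg2 chr1:134079106-134079405 (minus strand).
Fos promoter: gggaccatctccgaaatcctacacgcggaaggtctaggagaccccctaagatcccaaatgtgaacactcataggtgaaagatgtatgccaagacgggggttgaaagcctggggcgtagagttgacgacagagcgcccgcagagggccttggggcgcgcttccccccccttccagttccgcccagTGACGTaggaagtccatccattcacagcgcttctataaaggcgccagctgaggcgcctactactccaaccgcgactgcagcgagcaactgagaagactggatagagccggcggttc
Atf3 promoter: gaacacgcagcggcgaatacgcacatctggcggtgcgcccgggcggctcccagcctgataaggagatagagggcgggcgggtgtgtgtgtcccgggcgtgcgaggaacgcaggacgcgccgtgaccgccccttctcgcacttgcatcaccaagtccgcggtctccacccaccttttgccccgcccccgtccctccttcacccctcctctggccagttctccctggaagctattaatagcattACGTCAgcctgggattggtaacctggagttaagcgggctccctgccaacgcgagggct
Btg2 promoter: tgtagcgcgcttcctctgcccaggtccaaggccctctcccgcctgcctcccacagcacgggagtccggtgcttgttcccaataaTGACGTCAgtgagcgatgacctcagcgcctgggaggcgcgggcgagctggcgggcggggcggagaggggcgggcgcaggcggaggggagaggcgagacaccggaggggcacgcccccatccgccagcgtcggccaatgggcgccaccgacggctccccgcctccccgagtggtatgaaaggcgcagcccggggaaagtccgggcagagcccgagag

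The letters TGACGT, sought on both strands and counted also inside TGACGTCA, stood in 13 of the 34 immediate early genes with a promoter in the table (38.2%), against 2263 of all 27025 genes with one (8.37%). Among the 9 such genes that were lower in sham, 4 held it (Fos, Atf3, Btg2 and Dusp1), and among the 8 tested genes that were not called, 1 did (Plk2). The share was 7 of 20 (35%) in the citric acid cycle and 1 of 24 (4.17%) in fatty acid oxidation. The full TGACGTCA stood in 4 of 34 immediate early promoters, against 2.03% of all. The letters TATAAA stood in 5 of the 34 (14.7%), against 15.7% of all, and AAGGTCA, which nuclear receptors of the ERR family bind, in 2 of 20 promoters of the citric acid cycle (10%), against 5.38% of all. A match describes the letters in this window and not a bound site.

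Fos, a subunit of the AP-1 factor, stood at 4.68 and 4.56 in adult and 0.45 in sham, with 744, 686 and 7 reads. Egr1, a zinc finger factor, stood at 6.46 and 6.35 in adult and 2.35 in sham. The adult libraries lay close together for both genes and sham lay far below them, by a ratio of 64.3 (95% counting interval 31.2 to 160.3) for Fos and 20.4 (17.0 to 24.8) for Egr1. Jun, the partner of Fos in AP-1, stood at 5.68, 5.85 and 3.65, and Junb, another AP-1 subunit, at 3.43, 3.47 and 1.78. Jund, the family member that cells express steadily, stood at 4.11, 4.05 and 4.02 (difference -0.064, SE 0.12, limma adjusted p = 0.645). Fosb did not reach 5 FPKM and held 151, 210 and 1 reads.

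Among the other factors, Atf3, which stress signals induce, stood at 3.29 and 3.72 in adult and 1.04 in sham, and the orphan receptor Nr4a1 at 2.93, 3.39 and 1.42. Arc, a cytoskeletal protein known from active neurons, stood at 2.79, 3.24 and 0.36. Both adult libraries lay above sham for each of these genes, as the call requires, and replicate 2 lay above replicate 1. Btg2, an antiproliferative factor, differed by -2.43 (SE 0.20), Zfp36, which speeds the decay of AU-rich transcripts, by -2.00 (SE 0.26), Dusp1, a phosphatase that turns MAP kinases off, by -1.77 (SE 0.18), and Cyr61, a matricellular protein, by -1.87 (SE 0.12). The 10 tested genes that were not called lay between -0.92 for Gadd45g and 0.74 for Plk2. Of these, Gadd45g, Ier5, Klf4 and Klf6 were lower and Plk2 higher by limma, and Ier2, Klf2, Jund, Ier3 and Klf10 did not pass.

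**Figure D2:**
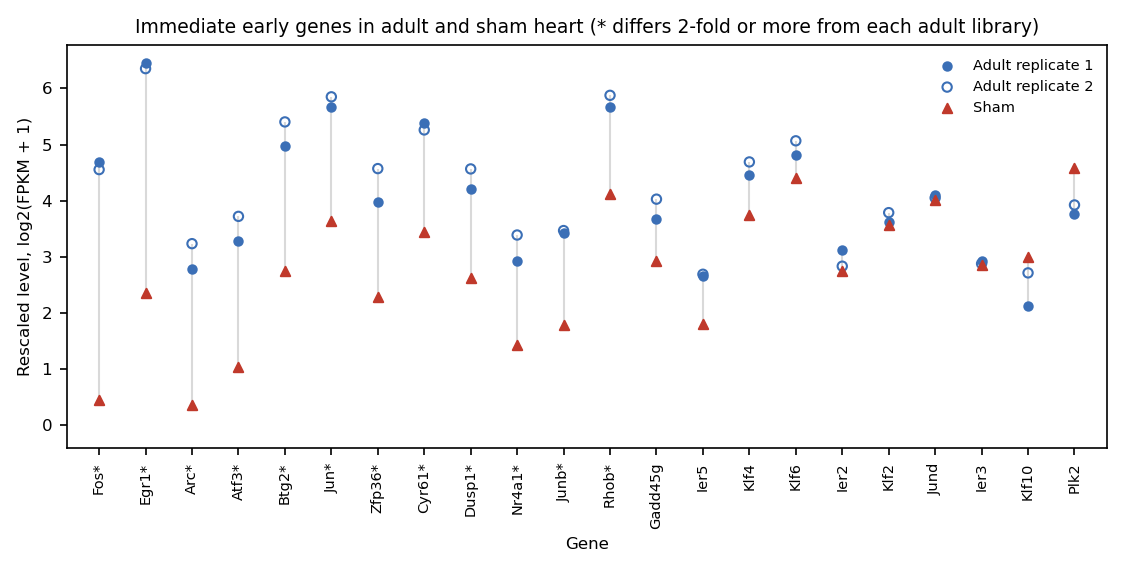
Levels of the 22 tested immediate early genes in log2(FPKM + 1), with adult replicate 1 as filled circles, adult replicate 2 as open circles and sham as triangles, ordered by the difference. Fos and Egr1, at the left, lie at 0.45 and 2.35 in sham and above 4 in both adult libraries.

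In the banding library, the other operated heart, Fos stood at 0.39, Egr1 at 2.38, Arc at 0.17 and Btg2 at 2.88. For these 4 genes banding, like sham, lay below both adult libraries, while Atf3 stood at 2.36 in banding and 1.04 in sham. In E12.5 heart Fos stood at 1.18 and Egr1 at 2.12. Banding and E12.5 had 1 library each.

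The heat shock and chaperone genes leaned the same way. Of 17 tested, 5 were lower and none higher by the 2-fold rule, 14 were lower by limma, and the median was -0.71, below that of all genes under each scaling. Dnajb4, a co-chaperone, stood at 5.96 and 5.76 in adult and 3.25 in sham, Hspa8, the constitutive HSP70, at 10.47, 10.26 and 8.84, and Bag3, which hands clients from HSP70 to autophagy, at 7.63, 7.49 and 6.01. Of 13 genes that glucocorticoids induce, 2 were lower, near the 16.5% of all genes. They were Errfi1 and Cdkn1a, with differences of -1.65 (SE 0.31) and -1.28 (SE 0.15). The count was 5 without adult replicate 1 and as deposited, and none at 3-fold. Both Errfi1 and Cdkn1a reached 5 FPKM in adult alone.

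Of 15 tested circadian clock genes 2 were higher and 2 lower, near the 13.2% and 16.5% of all genes. The higher count was 4 without adult replicate 2 and 5 with upper-quartile scaling. Tef, an output factor of the clock, stood at 3.62 and 3.90 in adult and 5.57 in sham, and Per3, a repressor of the clock, at 1.88, 2.41 and 3.77. Clock, its activator, stood at 3.71, 3.50 and 2.10, and Nfil3, a repressor of Tef's targets, at 2.96, 2.42 and 1.15. Sham lay outside the adult pair for all 4, as the 2-fold rule requires. Per3 reached 5 FPKM in sham alone, and Clock and Nfil3 in adult alone, so the filter fixed their side. The median of the 15 was 0.34, and -0.25 as deposited.

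Atrial genes separated the hearts in part. Of 19 listed, 12 were tested, 5 were lower and 2 higher in sham, with a median of -0.32 (-0.86 as deposited, -0.15 with upper-quartile scaling). Of the 5 lower genes 4 reached 5 FPKM in adult alone, as did 1 of the 2 higher genes in sham. Myl4, the atrial essential light chain, stood at 6.53 and 5.85 in adult and 1.90 in sham, with 1162, 731 and 22 reads. Myl7, the atrial regulatory light chain, stood at 4.47 and 3.06 in adult and 0.80 in sham, with 179, 63 and 4 reads. For both the adult libraries differed from each other, replicate 1 being higher, and sham lay below both. Their FPKM was lower in sham by a ratio of 27.1 (95% counting interval 17.9 to 43.4) and 19.1 (7.35 to 70.5). Sln, the atrial regulator of the calcium pump, was below the filter with 53 and 14 reads in adult and 0 in sham.

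Kcnj3, a subunit of the atrial acetylcholine-gated potassium channel, stood at 4.16 and 4.02 in adult and 1.66 in sham, whereas its partner Kcnj5 stood at 3.52, 3.40 and 3.35 (limma adjusted p = 0.493). Pam, an enzyme that amidates peptides in atrial granules, stood at 7.18, 6.79 and 5.41, and Angpt1, a ligand of the endothelial receptor Tie2, at 3.46, 3.95 and 2.04. The 2 higher members were Nppa and Adm, the vasodilator adrenomedullin, which stood at 1.89 and 1.94 in adult and 3.10 in sham. Tbx5, Kcna5 and Nr2f2, also atrial, differed by -0.37, -0.27 and 0.14 and did not pass limma. The light chains, Kcnj3 and Pam thus lay lower and Nppa higher, and members of 1 list did not share a direction. In the banding library Myl4 stood at 2.22, Myl7 at 0.96 and Kcnj3 at 1.03, near sham, and Nppa stood at 12.77.

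Of 10 tested genes of ventricular muscle, 2 were lower, near the 16.5% of all genes, and none higher, with a median of -0.70. As deposited 7 were lower, and 1 with upper-quartile scaling. Of the 2 lower genes 1 reached 5 FPKM in adult alone. Gja1, the gap junction protein connexin 43, stood at 7.45 and 7.29 in adult and 5.41 in sham, and Irx3, a factor of the conduction system, at 2.79, 2.82 and 1.77. The ventricular light chains Myl2 and Myl3 were lower by limma and did not reach 2-fold, with differences of -0.87 (SE 0.10) and -0.51 (SE 0.09). Of 10 nodal and conduction genes only Gjc1, connexin 45, was tested, and it did not pass limma (adjusted p = 0.124).

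The sarcomere was split. Of 24 genes, all tested, 7 were lower and 2 higher by the 2-fold rule, with a median of -0.62. Myoz2, a Z-disc protein that binds calcineurin, stood at 10.32 and 10.26 in adult and 7.02 in sham, and Nebl, the nebulin-like Z-disc protein, at 5.59, 5.60 and 2.60. Tcap, which caps titin at the Z-disc, stood at 9.29 and 9.72 in adult and 11.65 in sham. Z-disc genes called by the 2-fold rule thus lay on both sides of adult. Actc1, cardiac actin, differed by -1.93 (SE 0.11), Ckm, muscle creatine kinase, by -1.67 (SE 0.13), and Actn2, the Z-disc crosslinker, by -1.42 (SE 0.10). Tnni3, cardiac troponin I, stood at 11.98, 11.99 and 12.55, above adult by limma and by less than 2-fold.

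**Figure D3:**
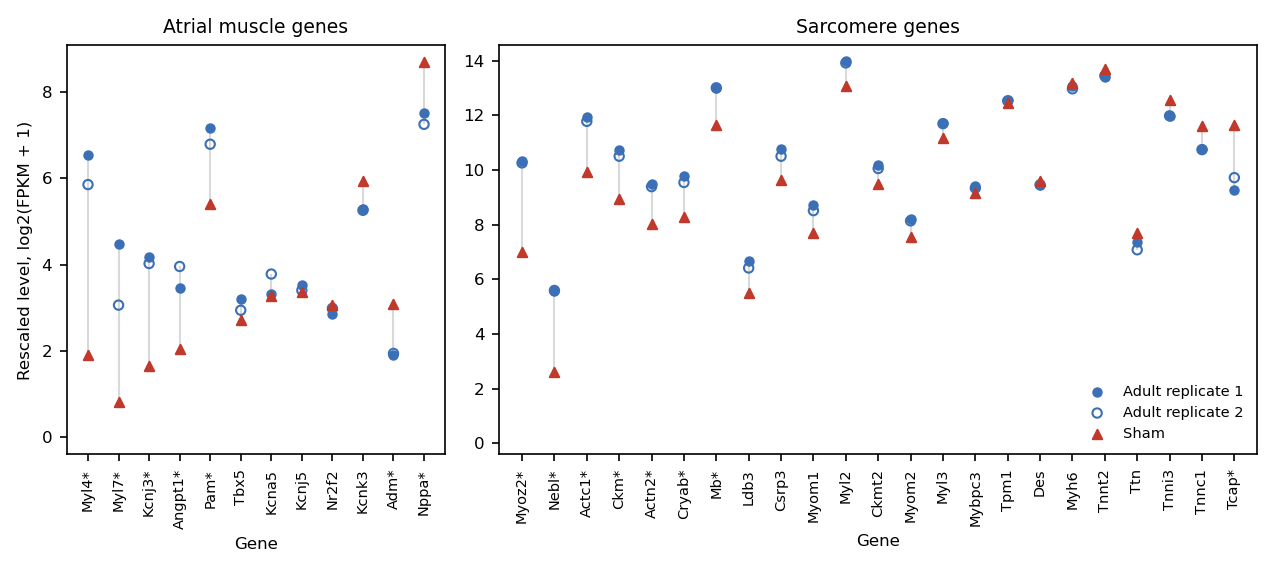
Levels of 12 atrial (left) and 23 of 24 sarcomere genes (right) in log2(FPKM + 1), with adult replicates as circles and sham as triangles, and stars on names that differ 2-fold from each adult library. Myl4 and Myl7 lie at 1.90 and 0.80 in sham, below both adult libraries, and Tcap stands above them.

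Calcium cycling and ion channels had 4 lower members each and none higher, of 16 and 11 tested, with medians of -0.40 and -0.79. Among all genes 16.5% were lower and 13.2% higher. Upper-quartile scaling gave calcium cycling 1 higher and 3 lower. Atp2a2, which pumps calcium back into the sarcoplasmic reticulum, stood at 10.67 and 10.60 in adult and 9.24 in sham, and its inhibitor Pln, phospholamban, at 10.65, 10.45 and 7.75. Pln was thus lower by 7.01-fold (95% counting interval 6.81 to 7.21) and Atp2a2 by 2.63-fold (2.60 to 2.66). Camk2d, a kinase that acts on Pln, differed by -1.87 (SE 0.11), and Slc8a1, the sodium-calcium exchanger, by -1.08 (SE 0.12). Atp1b1, a subunit of the sodium pump, stood at 6.92, 6.88 and 4.26.

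The citric acid cycle lay almost wholly below adult. All 23 genes were tested, 17 were lower and none higher by the 2-fold rule, 21 were lower by limma, and 22 of the 23 differences were negative. The median was -1.63, with -2.24 as deposited and -1.44 with upper-quartile scaling, and the lower count was 19 and 16. Idh3a, the catalytic subunit of the NAD-dependent isocitrate dehydrogenase, stood at 7.67 and 7.79 in adult and 4.56 in sham. Sdha, the flavoprotein of succinate dehydrogenase, stood at 9.05, 8.996 and 6.63. For both the adult libraries lay close together and sham far below. In FPKM, Idh3a was 9.35-fold lower in sham (95% counting interval 8.55 to 10.2) and Sdha 5.28-fold (5.08 to 5.50).

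Subunits of 1 complex did not share a size of difference. Pdha1, the alpha subunit of pyruvate dehydrogenase, differed by -2.27 (SE 0.10, limma adjusted p = 0.000396), and its beta subunit Pdhb by -0.35 (SE 0.11, adjusted p = 0.0356). Idh3a differed by -3.17 (SE 0.11) and its partner Idh3g by -0.45 (SE 0.13). Sdha differed by -2.39 (SE 0.10), and Sdhb, the iron-sulfur subunit, by -0.20 (SE 0.11, limma adjusted p = 0.156). Suclg1, the alpha subunit of succinyl-CoA ligase, stood at 7.35 and 7.19 in adult and 7.29 in sham, between the adult libraries. Within these pairs the member with the smaller difference had the shorter transcript, 1485 against 2761 bases for Pdhb and Pdha1, 1331 against 2404 for Idh3g and Idh3a, and 1073 against 2859 for Sdhb and Sdha. These pairs were chosen after their values were seen.

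Of 29 tested genes of fatty acid oxidation, 17 were lower and 2 higher, with a median of -1.24 (-1.85 as deposited, -1.05 with upper-quartile scaling). Cd36, the fatty acid transporter of the cell surface, stood at 8.96 and 8.72 in adult and 6.78 in sham, and Fabp3, the binding protein that carries fatty acids in heart muscle, at 11.68, 11.66 and 9.58. Pdk4, the kinase that shuts off pyruvate dehydrogenase when fat is burnt, stood at 7.26, 7.12 and 4.50. Etfdh, which passes electrons from fat to the respiratory chain, differed by -2.35 (SE 0.10), and Hadh, an enzyme of the oxidation spiral, by -2.04 (SE 0.17). The 2 higher members were Fabp4 and Slc27a1. Fabp4, the binding protein of fat cells and endothelium, stood at 9.63 and 9.71 in adult and 11.44 in sham, and Slc27a1, a fatty acid transporter, at 3.69, 3.45 and 4.92.

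**Figure D4:**
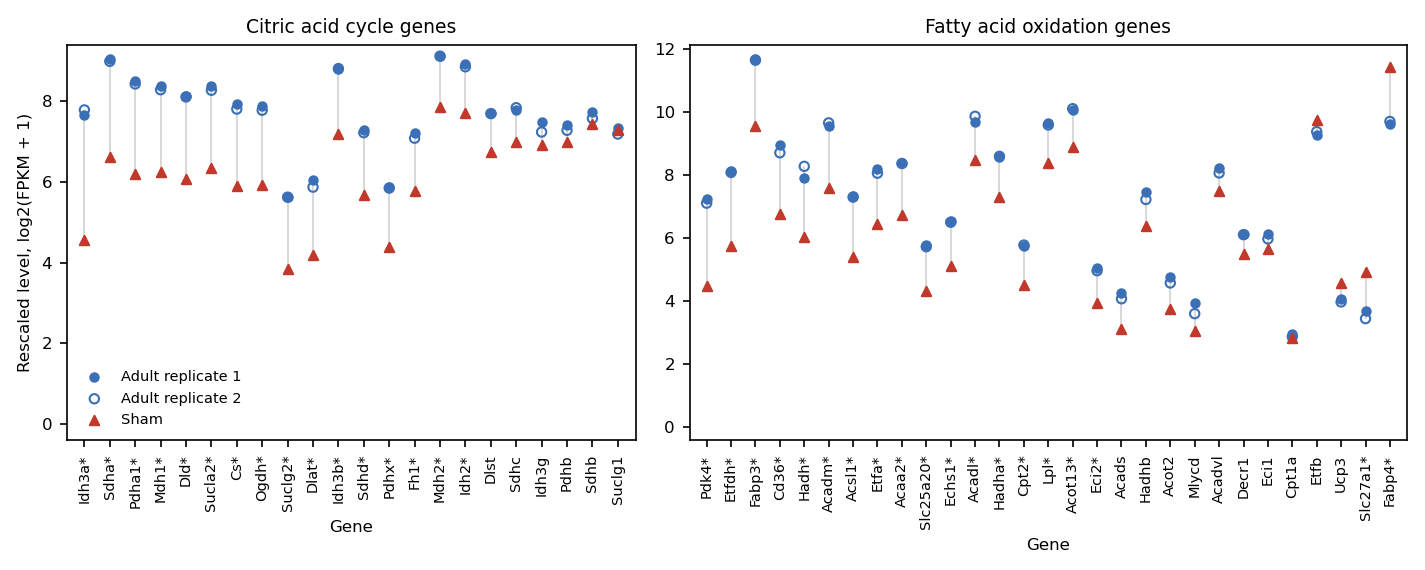
Levels of 22 of 23 citric acid cycle (left) and 29 fatty acid oxidation genes (right) in log2(FPKM + 1), with adult replicates as circles and sham as triangles, and stars on names that differ 2-fold from each adult library. The adult replicates nearly overlap, most genes in each panel lie lower in sham, and Fabp4 at the far right lies at 11.44 in sham.

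Ketone and branched-chain amino acid genes had 10 of 17 tested lower and none higher, with a median of -1.19. Ivd, an enzyme of leucine breakdown, stood at 5.33 and 5.27 in adult and 2.91 in sham, and Acat1, the last enzyme of ketone use, at 7.19, 7.10 and 5.36. Glycolysis and glycogen genes had 4 of 25 lower and 2 higher, with a median of -0.32. These counts were no larger than the shares of all genes (16.5% lower and 13.2% higher), and both higher genes reached 5 FPKM in sham alone. Ugp2, which makes the UDP-glucose for glycogen, stood at 5.84, 5.40 and 2.60, and the lactate carrier Slc16a1 differed by -1.80 (SE 0.20). In the banding library Ugp2 stood at 3.98.

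Among 14 tested regulators of metabolism, 4 were lower and 1 higher, with a median of -0.75. Of the 4 lower genes 3 reached 5 FPKM in adult alone. Ppargc1a, the coactivator that drives mitochondrial genes, stood at 5.20 and 5.08 in adult and 3.68 in sham. Its relative Ppargc1b stood at 3.44, 3.19 and 4.51, so the coactivators lay on opposite sides of adult. Prkaa2, a catalytic subunit of AMP kinase, differed by -2.18 (SE 0.14), and Esrrg, a nuclear receptor of oxidative genes, by -1.54 (SE 0.15).

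The respiratory chain and ATP synthase had no common direction. Of 39 genes, all tested, 13 were lower and 4 higher, and the median was -0.052, which became -0.66 as deposited and 0.13 with upper-quartile scaling, where 7 were lower and 7 higher. Ndufv2, a core subunit of complex I, stood at 9.01 and 8.93 in adult and 6.90 in sham, and Atp5a1, the alpha subunit of ATP synthase, at 9.997, 9.98 and 8.43. Ndufa2 and Ndufa1, accessory subunits of complex I, stood at 6.32, 6.07 and 8.29 and at 5.64, 5.32 and 7.24. Called members thus lay on both sides of adult. The 4 higher members, with Cox8b and Atp5d, have transcripts of 363 to 931 bases. Of the lower members, Ndufv2 and Atp5a1 have 1472 and 2431 bases, and Cox5b and Atp5j have 569 and 758, inside the range of the higher ones.

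The difference varied with transcript length over all genes, in no steady order. Tested genes with a recovered length were split by it into 4 groups of 1693 or 1694. The shortest had a median difference of 0.091, with 18.3% higher and 14% lower, and the longest a median of -0.13, with 8.97% higher and 13.6% lower. Between them the medians were -0.12 and -0.22, with 13.1% and 12.6% higher and 19.3% and 19.2% lower, so the third group lay lowest. Between the adult replicates the same medians were 0.026 and 0.0094. The tested genes of the citric acid cycle had a median length of 2108 bases, those of the respiratory chain 805, those of the cytosolic ribosome 740, and all genes tested 2661. The part of length in these groups was not tested.

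Cytosolic ribosomal protein genes had 8 of 29 tested higher and none lower, with a median of 0.59. As deposited the median was -0.03, with 2 higher and 3 lower. Rps19 stood at 4.17 and 4.12 in adult and 5.88 in sham, Rps14 at 5.21, 5.18 and 6.88, and Rplp2, of the ribosomal stalk, at 6.91, 6.97 and 8.39. These genes have many near-identical pseudogenes, so their levels are uncertain. The mitochondrial ribosome had 2 of 20 lower and none higher, fewer than the 16.5% and 13.2% of all genes. Its median of -0.24 stayed negative under each scaling, and Mrpl42 stood at 9.60 and 9.52 in adult and 6.85 in sham.

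Genes of splicing and RNA binding had 10 of 34 tested higher and 2 lower, with a median of 0.64, which as deposited was 0.03 with 1 higher and 4 lower. Luc7l, a U1-associated factor, stood at 3.28 and 3.16 in adult and 4.91 in sham, and Rbm25, a splicing factor, at 6.15, 6.22 and 7.68. Hnrnpk, an RNA-binding protein, and Mbnl2, a regulator of splicing in muscle, lay the other way, with differences of -1.57 (SE 0.11) and -1.93 (SE 0.11). The proteasome had 2 of 24 higher and 5 lower, near the 13.2% and 16.5% of all genes. Its median was -0.13, and 0.055 with upper-quartile scaling.

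Nuclear long noncoding RNA included 3 of the large differences. Of 10 listed, 5 were tested, with 3 higher and 1 lower, beside 13.2% and 16.5% of all genes. Of the 3 higher genes 1 reached 5 FPKM in sham alone, and the lower gene did in adult alone. The median was 1.67, and 0.92 over the 10 genes with no filter. Neat1, the scaffold of paraspeckles, stood at 6.9995 and 7.12 in adult and 10.60 in sham, and its FPKM was 11.7 times that of adult (95% counting interval 11.4 to 11.9). Malat1, a transcript of nuclear speckles, stood at 10.86, 10.81 and 12.59, and Kcnq1ot1, the antisense transcript that silences an imprinted cluster, at 1.77, 1.85 and 3.49. The list kept 3 higher members as deposited and with upper-quartile scaling, and the adult libraries lay close together for each. Xist, which silences 1 X chromosome in females, stood at 3.21 and 2.91 in adult and 1.83 in sham.

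Y-linked genes were read in all 3 libraries beside Xist. Eif2s3y stood at 4.71 and 4.45 in adult and 6.11 in sham, Ddx3y at 3.95, 4.04 and 4.71, and Uty at 2.16, 2.07 and 2.65. Xist was thus lower and these 3 genes were higher in sham by limma, of which Eif2s3y and Xist reached 2-fold (Eif2s3y not on the deposited scale), and each library held transcripts of both sexes. The sex of the animals is not given in the labels, and its part in the other results was not tested.

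Many small RNA genes that passed the filter stood above adult, often on few reads. Of 744 listed, 202 were above 0 in any of the 3 libraries and 47 were tested, of which 32 were higher and 4 lower by the 2-fold rule. Of the 32, 26 reached 5 FPKM in sham alone, so the filter fixed their side, and 6 also reached it in adult (Mir3064, Scarna17, Mir208a, Mir208b, Mir5109 and Rn45s). The split is therefore a description of the genes that passed. Their median difference was 2.28, and 1.88 with a group at 0 set to the floor of 3 reads over that group. Of the 32, 16 held under 10 reads in sham and 9 were listed at 0 in both adult libraries. Without Rn45s, all small RNA genes together held 506 and 500 reads in adult and 1246 in sham. Of these, microRNA genes held 346, 347 and 882, and small nucleolar RNA genes 121, 127 and 156. Mir5109, Mir208a, Mir208b and Rn4.5s, given below, held most of the rise in the total.

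**Figure D5:**
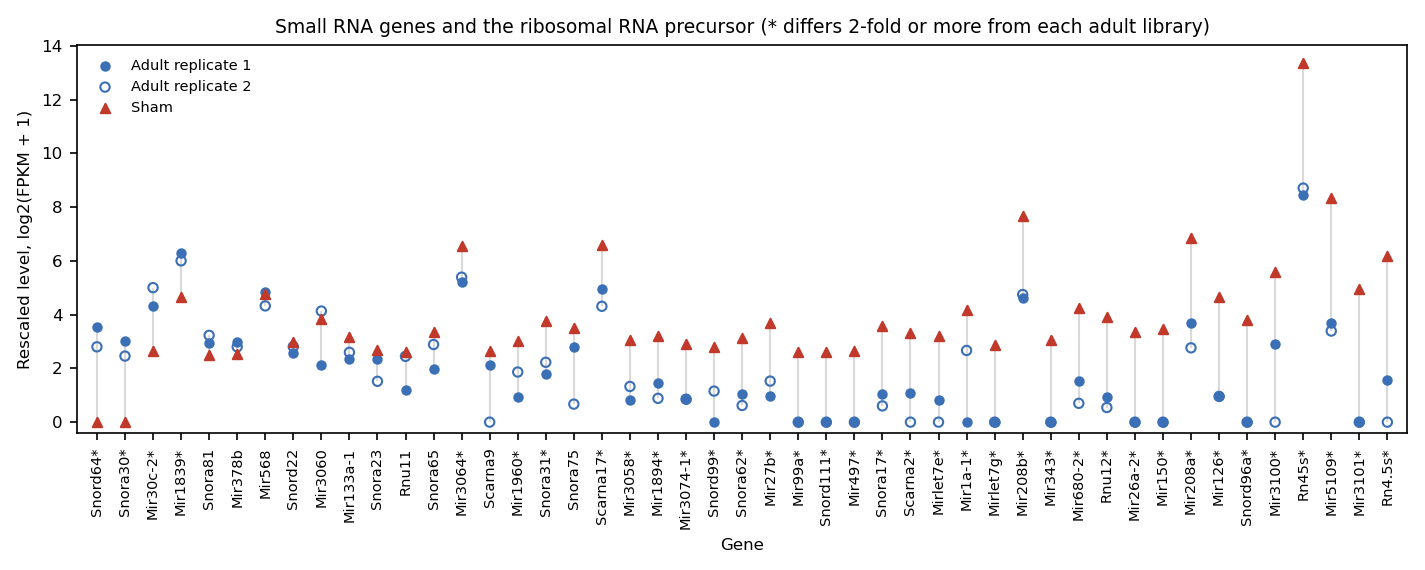
Levels of the 47 tested small RNA genes, the ribosomal RNA precursor Rn45s among them, in log2(FPKM + 1), with adult replicates as circles and sham as triangles. Sham lies above both adult libraries in 32 starred genes and below both in 4.

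The mature sequences of microRNAs whose genes differ are shown from RefSeq on GRCm38.p6, to let the reader compare seeds, 5′ to 3′, with the seed at bases 2 to 8 in capitals. The first 2, which lie in introns of the heart myosin genes Myh6 and Myh7, share their seed. They are miR-208a-3p at chr14:54949072-54949093 (minus strand) and miR-208b-3p at chr14:54975710-54975731 (minus), and miR-126a-3p lies at chr2:26591402-26591423 (plus). In the order shown, the others lie at chr10:126995543-126995564 (plus), chr7:27176020-27176040 (minus), chr7:19086828-19086850 (plus), chr1:23291714-23291736 (plus) and chr7:81529919-81529940 (plus). The last 2 belong to genes lower in sham and the others to genes higher in sham.
mmu-miR-208a-3p: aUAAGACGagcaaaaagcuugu
mmu-miR-208b-3p: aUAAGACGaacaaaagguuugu
mmu-miR-126a-3p: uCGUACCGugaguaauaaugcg
mmu-miR-26a-5p: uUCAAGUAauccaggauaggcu
mmu-miR-3101-3p: uAGCUUUGguggauggucuuu
mmu-miR-3100-5p: uUGGGAACggggugucuuuggga
mmu-miR-30c-5p: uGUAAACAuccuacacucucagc
mmu-miR-1839-5p: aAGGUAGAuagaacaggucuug

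Reads on these genes in a poly(A) library count RNA that spans the hairpin and do not measure the mature microRNA. Mir208a held 14 and 7 reads in adult and 87 in sham, where its FPKM was 13.2 times that of adult (95% counting interval 8.09 to 22.3). Mir208b, chosen after its values were seen, held 26, 29 and 142, with a ratio of 8.20 (5.97 to 11.4). Their hosts Myh6 and Myh7 had ratios of 1.12 (1.12 to 1.12) and 1.00 (0.984 to 1.02). The intronic hairpins thus stood well above adult, and their hosts close to it after rescaling (below it as deposited). Mir126, the endothelial microRNA in an intron of Egfl7, held 1, 1 and 16 reads, and Egfl7 stood at 4.26 and 4.24 in adult and 7.11 in sham. In the banding library Mir208a held 53 reads and Mir208b 42.

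Mir3101 held no read in adult and 24 in sham, which is 25.4-fold higher against a floor of 3 reads over the adult pair, with an exact 95% lower limit of 19.1. Mir5109 held 15, 12 and 255 reads, Rn4.5s held 5, 0 and 114, and Rn45s held 29588, 35410 and 552795. Mir3100 held 6, 0 and 28 reads. Lars2, the mitochondrial leucyl-tRNA synthetase, was the protein-coding gene furthest above adult, at 5.27 and 4.96 in adult, 10.38 in sham and 10.33 in banding. Rn45s itself stood at 8.47 and 8.71 in adult, 13.34 in sham and 13.34 in banding. Lars2 took 0.0166% and 0.0138% of mapped reads in adult, 0.389% in sham and 0.384% in banding. Lars2 and Rn45s thus both stood far above adult in sham and banding, each at nearly the same level in those libraries. Whether the reads on Lars2 come from its own transcript or follow those of Rn45s was not tested.

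The 4 lower small RNA genes were Mir1839, Mir30c-2, Snora30 and Snord64. Mir1839 held 81 and 67 reads in adult and 16 in sham, lower by 2.91-fold (1.74 to 5.23), and Mir30c-2 held 23, 38 and 4. Snora30 held 11, 7 and 0 reads, and Snord64 held 7, 4 and 0. For Snora30 the exact 95% lower limit on the ratio of adult to sham was 1.39, and for Snord64 it was 0.79, so no difference in Snord64 was detectable at this depth. Recovered reads are the smallest whole numbers that fit, so very low genes may hold a multiple of them. Host genes of small nucleolar RNA had 3 of 12 tested higher, Snhg6, Snhg7 and Snhg8, and none lower, with a median of 0.56, and as deposited none was called. All 3 reached 5 FPKM in sham alone, so the filter fixed their side. Among all genes tested 13.2% were higher.

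Matrix and fibroblast genes stood above adult. In bulk tissue more cells of a type and more RNA per cell cannot be told apart. Of 24 tested matrix genes, 12 were higher and 1 lower, with a median of 1.06, and of 13 fibroblast genes 7 were higher and none lower, with a median of 1.14. As deposited these counts were 5 and 3 for matrix and 2 and 1 for fibroblast, with medians of 0.46 and 0.61. Of the 12 higher matrix genes 4, Eln and Thbs4 among them, reached 5 FPKM in sham alone, and the lower gene did in adult alone. Of the 7 higher fibroblast genes 1 reached it in sham alone. With no filter the median was 0.37 over 33 matrix genes and 1.14 over 17 fibroblast genes. Dcn, a proteoglycan of fibroblasts, stood at 5.86 and 6.12 in adult and 8.13 in sham, and Eln, elastin, at 2.50, 2.66 and 4.64. Col1a1 stood at 2.79, 3.03 and 4.46, and Thbs4, a thrombospondin of tendon and loaded heart, at 2.08, 1.83 and 4.26. Postn, periostin of activated fibroblasts, was the lower member, at 3.95 and 4.23 in adult and 2.34 in sham. In banding Postn stood at 5.50 and Col1a1 at 6.48, so both lay above sham there.

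Of 31 immune markers 10 were tested, 6 were higher and none lower, with a median of 1.61, and 4 of the 6 reached 5 FPKM in sham alone. C1qa, a complement subunit of macrophages, stood at 1.67 and 1.10 in adult and 4.37 in sham, with 17, 9 and 97 reads, and Tyrobp, an adaptor of myeloid receptors, at 0.58, 0.98 and 2.81. Retnla, a product of alternatively activated macrophages, held 4, 11 and 67 reads, and 7 in banding. Cd74 and H2-Aa, of antigen presentation, differed by 1.69 (SE 0.23) and 1.53 (SE 0.16). Lyz2, the myeloid lysozyme and the most abundant of the 10 in adult, stood at 4.68, 5.21 and 4.29 (limma adjusted p = 0.0512). The summed FPKM of the 31 markers was 78.2 and 103 in adult and 202 in sham. With the filter at 1 FPKM, 20 markers were tested, of which 8 were higher and none lower.

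Of 10 tested inflammatory and interferon genes, 5 were higher and 1 lower, with a median of 1.06, and 3 of the 5 reached 5 FPKM in sham alone. As deposited 2 were higher and 2 lower, and with no filter 5 of 29 were higher and 2 lower, with a median of -0.044. Bst2 and Isg15, both induced by interferon, stood at 2.29, 2.41 and 4.11 and at 1.76, 1.86 and 3.40, above both adult libraries. Endothelial genes had 4 of 20 higher and none lower, beside 13.2% and 16.5% of all genes. Their median was 0.31 and -0.42 as deposited, and 12 differences were positive and 8 negative. Among the 4 were Egfl7 and Nos3, the endothelial nitric oxide synthase. Nos3 reached 5 FPKM in sham alone. Smooth muscle and pericyte genes had 1 higher and 3 lower of 12, with a median of -0.031 that was 0.15 with upper-quartile scaling. Acta2, smooth muscle actin, stood at 6.84 and 6.80 in adult and 5.39 in sham. Beta-s, a beta-globin gene, held 1, 22 and 314 reads, and Alas2, the haem synthesis enzyme of red cells, 13, 32 and 143. Hba-a1, Hba-a2, Hbb-b1 and Hbb-b2 were listed at 0 in all 3 libraries. They were at 0 in E12.5 heart too, where Beta-s held 19240 reads, so a 0 here need not mean that globin RNA was absent.

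Shares called in hypoxia and oxidative stress defence were close to those of all genes (13.2% higher and 16.5% lower). Of 12 tested hypoxia genes 2 were higher and 3 lower, with a median of -0.21, and both higher genes reached 5 FPKM in sham alone. Egln1 and Egln3, the oxygen-sensing prolyl hydroxylases, stood at 6.21, 6.03 and 4.16 and at 4.71, 4.51 and 2.82, and Bnip3, a mitochondrial protein that hypoxia induces, at 5.74, 5.49 and 3.66. Of 15 tested genes of oxidative stress defence 2 were higher and 3 lower, or 5 lower without adult replicate 2, with a median of -0.75. Cat, catalase, stood at 6.41 and 6.26 in adult and 4.19 in sham, and Prdx3, the mitochondrial peroxiredoxin, at 6.43, 6.21 and 4.53. Sod1, the cytosolic superoxide dismutase, and Gpx3, a secreted glutathione peroxidase, lay above both adult libraries, with differences of 1.05 (SE 0.10) and 1.33 (SE 0.17).

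Markers of other tissues that a dissected heart could hold were mostly below the filter. Of 13 adipocyte markers 4 were tested, with Fabp4 higher and Car3, the carbonic anhydrase of fat and muscle, lower at 2.95 and 2.56 in adult and 0.36 in sham. Of 19 skeletal muscle markers 5 were tested, and Myl1 and Ckm were lower, with Myl1, the fast-muscle light chain, at 5.20, 5.28 and 2.93. The summed FPKM of the 19 was 2042 and 1637 in adult and 666 in sham. Most of each sum was Ckm, which is also in the sarcomere list and stood at 10.74, 10.51 and 8.95. The sum therefore does not measure skeletal muscle in the samples. Myh4, a myosin heavy chain of fast skeletal muscle, held 2 and 1 reads in adult and 0 in sham. Of 9 lung markers only Hopx was tested, a factor that heart muscle also makes, with a difference of -1.51 (SE 0.12). No marker of thymus or of liver reached the filter. Of 12 epicardial markers Upk3b alone was tested, and it was higher, at 1.95, 1.29 and 3.01. Upk3b reached 5 FPKM in sham alone, and Car3 in adult alone.

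The genes furthest from adult in each direction, small RNA and predicted genes aside, came from several groups. Above adult, after Lars2 and Beta-s, stood Clec2d, a C-type lectin, at 2.20 and 2.34 in adult and 5.85 in sham, Crip1, a LIM protein, at 3.99, 4.03 and 7.40, and Lsm7, a U6-binding protein, at 2.41, 3.13 and 6.04. Sfi1, a centrosomal protein, and Adamts10, a matrix protease, differed by 3.10 (SE 0.15) and 2.90 (SE 0.13). Below adult, after Myl4, Fos and Egr1, stood Otud1, a deubiquitinase, at 4.68, 4.97 and 1.54. Tecrl, an enzyme of the endoplasmic reticulum linked to arrhythmia, stood at 5.86, 5.66 and 2.51, and Gfm1, the mitochondrial elongation factor, at 7.26, 6.99 and 4.04. Baiap2l1 and Myot, the Z-disc protein myotilin, differed by -3.37 (SE 0.40) and -3.15 (SE 0.34), with adult replicate 1 above replicate 2 in both.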

How the data were processed

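The authors deposited 1 table per RNA-seq library with a gene symbol and a log2(FPKM + 1) value for 23284 genes, as deposited without a header. The labels' protocols describe pooled RNA, poly(A) selection in 2 rounds and random hexamer priming. The submitters' processing notes name TopHat 1.4, HTSeq 0.5.3, CASAVA 1.8.2 and mm9, with no role for each. Values were turned back to FPKM, rescaled by median-of-ratios and tested as log2(FPKM + 1), a pseudocount of 1 that understates the change of low genes.

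A gene was called at 2-fold from each adult library. Adjusted p-values come from limma 3.58.1 (R 4.3.3, trend, Benjamini-Hochberg), with 1 residual and 4.065 prior degrees of freedom. The steps were also run on simulated data with 200 changed genes, in which sham varied like the adult libraries. That run therefore cannot check the same assumption for the real sham library. Whole reads and transcript lengths were recovered from the steps of the FPKM values (98.9% of values above 0, within 0.001 of a whole read), checked for microRNAs against RefSeq hairpins. Ratios and exact intervals come from these reads, and no count test was run. Sequences are from RefSeq on GRCm38.p6, and no coordinates were converted.

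Members and the 42 gene lists were chosen with earlier results of these data known. Named genes are 8 sentinels, up to 5 called members with the largest difference each way per list (10 for atrial and immediate early genes), and the 10 genes and 10 small RNA genes furthest each way. Junb, Jund, Fosb, Sln, Kcnj5, Tbx5, Kcna5, Nr2f2, Lyz2, H2-Aa, Tnni3 and genes not called were named after their values were seen. Some genes that the rule names are not reported here, and figures leave out their labels and points where genes are named. Alternatives were other scalings, pseudocount, filters, fold, adult reference, variance model and leaving out each adult library.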

Additional observations from a re-analysis of the deposited data

How the results depend on the processing

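On the scale as deposited, 267 genes were higher and 2406 lower by the 2-fold rule, and 912 and 4326 by limma, against 897 and 1119, and 2183 and 2601, after rescaling. With the filter at 1 FPKM or none, 1451 genes and 103 small RNA genes (32 at 5 FPKM) were higher by the 2-fold rule. With the filter at 1 FPKM, limma called 3604 higher. At 3-fold, 293 genes were higher and 371 lower. Upper-quartile scaling turned the split of called genes from 55.5% lower to 40.5%, and the scale as deposited to 90%. Leaving out each adult library gave 1017 to 1059 genes higher, 1219 to 1312 lower and 35 small RNA genes higher each time, and 20 to 21 lists below the median of all genes (20 with both). No call among 195 named genes reversed under the alternatives run. Most were named for differing 2-fold the same way from each adult library, which left little room for a reversal. Of the uncalled, Myh6 and Myh7 turned to -0.46 and -0.61 as deposited, Myh7 to -0.048 without adult replicate 2 and Acta1 to 0.10 without replicate 1. Of 191 tested as deposited, 36 lost the 2-fold call, and 88 did at 3-fold. The gap in median difference between the shortest and longest transcripts was 0.223 for sham against adult and 0.0164 between the adult libraries. No paired analysis was possible because sham has 1 library. Low read numbers limit the small RNA genes, and Mir208a rests on 7 reads in 1 adult library.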
